A study of Mus musculus with 7 samples.

Results

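The genes described are 10 regulators of the G1 phase of the cell cycle: the cyclin-dependent kinase inhibitors *Cdkn1a*, *Cdkn1b*, *Cdkn1c*, *Cdkn2a* and *Cdkn2b*, the retinoblastoma gene *Rb1*, its partner *E2f1*, the D-type cyclins *Ccnd1* and *Ccnd2*, and *Trp53*. They were named as a family, with earlier results of these data known. The peaks followed were those that overlapped 500 nt on either side of any of their protein-coding transcription start sites (TSSs) in GENCODE vM21. The genes are 10 of 21853 protein-coding genes and hold 23 of 54361 start sites. Their promoters carried 16 of the 1036304 peaks listed for NG, 13 of the 846027 for HG+NT and 13 of the 900109 for HG+miR-93.

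The cells were conditionally immortalised mouse podocytes, a cultured line of the glomerular epithelium that proliferates under permissive conditions and was used after differentiation. By the paper's methods the line carries a thermosensitive T antigen, and both high glucose and control cells were deprived of serum. NG cells received 5 mM glucose, HG+NT cells 25 mM glucose and a non-targeting mimic at 50 nM, and HG+miR-93 cells 25 mM glucose and a miR-93 mimic at 50 nM, each for 36 h and with 2 replicates. NG is given no mimic in the labels, so glucose and transfection cannot be told apart between NG and HG+NT. DNaseI cuts DNA that is free of nucleosomes, and genomic DNA from 1 sample served as the input against which peaks were called. The authors deposited 1 list per condition, named as a joint set, in which the replicates appear to be pooled. No difference between these lists therefore has a replicate check or a test. The paper also describes a negative binomial test (DESeq) on reads within 500 nt of start sites, which the lists do not hold.

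Progress through G1 depends on cyclin D and its kinases, which phosphorylate the retinoblastoma protein and so release E2F factors that switch on genes of DNA replication. The INK4 inhibitors, among them those encoded at the *Cdkn2a* and *Cdkn2b* locus, block the cyclin D kinases. The Cip/Kip inhibitors p21, p27 and p57 (*Cdkn1a*, *Cdkn1b* and *Cdkn1c*) bind a wider range of cyclin-kinase complexes. Mature podocytes are known as cells that have left the cell cycle, with p27 and p57 as their characteristic inhibitors, and p21 and p27 have been studied in podocytes exposed to high glucose.

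Promoters of 3 genes are shown first: *Cdkn2b*, which had the largest ratio of folds from NG to HG+NT among the 10 genes, *Cdkn2a*, which lies beside it, and *Cdkn1b*, which had the lowest fold in both HG lists. They are given as sequence from RefSeq (GRCm38.p6) that ends 1 base before the annotated start. Capitals mark matches to motifs, each searched on both strands. The motif of the E2F family was spelled TTTNNCGC. The motif called a GC box, a site of Sp1-like factors, was spelled GGGCGG. The CCAAT box was searched as those letters. The motif of Smad factors was spelled CAGAC. The printed matches do not overlap each other. The *Cdkn2b* promoter lies at chr4:89311040-89311282 on the minus strand, directly upstream of the first exon, and its capitals are the Smad motif, which starts at -122 nt.
*Cdkn2b*: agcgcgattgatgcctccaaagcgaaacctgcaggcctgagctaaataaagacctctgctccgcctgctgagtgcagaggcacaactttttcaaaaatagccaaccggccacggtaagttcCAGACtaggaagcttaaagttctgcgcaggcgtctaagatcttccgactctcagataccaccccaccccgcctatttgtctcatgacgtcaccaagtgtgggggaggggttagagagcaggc
*Cdkn2a* has 2 promoters. The one that encodes Arf lies at chr4:89294654-89294869 on the minus strand, with an E2F match at -65 nt and a GC box at -14 nt. The one that encodes p16Ink4a lies inside an intron of the Arf transcript at chr4:89282193-89282442, also on the minus strand, with an E2F match at -244 nt.
*Cdkn2a*, Arf: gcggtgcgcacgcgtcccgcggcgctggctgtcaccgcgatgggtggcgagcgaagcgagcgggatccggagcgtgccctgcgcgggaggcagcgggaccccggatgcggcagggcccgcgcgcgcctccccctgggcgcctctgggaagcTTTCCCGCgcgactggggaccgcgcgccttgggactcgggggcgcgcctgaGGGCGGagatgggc
*Cdkn2a*, Ink4a: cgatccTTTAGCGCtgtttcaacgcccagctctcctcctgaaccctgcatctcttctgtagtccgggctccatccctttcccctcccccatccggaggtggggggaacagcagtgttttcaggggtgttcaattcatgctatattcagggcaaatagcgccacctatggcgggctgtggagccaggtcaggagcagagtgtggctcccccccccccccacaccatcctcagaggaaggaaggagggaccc
The *Cdkn1b* promoter lies at chr6:134920151-134920400 on the plus strand, with CCAAT boxes at -161 and -35 nt and a GC box at -61 nt.
*Cdkn1b*: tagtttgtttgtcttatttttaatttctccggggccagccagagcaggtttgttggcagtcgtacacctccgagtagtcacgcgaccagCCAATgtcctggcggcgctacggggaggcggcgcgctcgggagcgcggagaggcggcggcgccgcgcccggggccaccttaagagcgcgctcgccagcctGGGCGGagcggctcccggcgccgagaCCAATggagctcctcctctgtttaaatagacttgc

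The RefSeq promoter table held 8 promoters of 6 of the genes, without *Cdkn1c*, *Rb1*, *Ccnd1* and *Ccnd2*. In the 250 nt upstream of the RefSeq start, the E2F motif was present in 2 of these 8, both of *Cdkn2a*, and in 4.28% of all 32851 promoters. A GC box was present in 4 of 8 against 32.7% of all, a CCAAT box in 2 of 8 against 33.8%, and a Smad motif in 3 of 8 against 42.2%. A TATA box (TATAAA) was found in 1, that of *Trp53*, against 12.4% of all promoters. An E-box (CACGTG) was found in 0 of 8 against 6.02%. The 8 promoters were rich in CpG, with a median of 15.5 CpG dinucleotides against 6 in all promoters, and ranged from 2 at the most upstream *Cdkn1a* start to 43 at *E2f1*. *Cdkn2b* had 12, a number that 33.5% of all promoters reached. A match is a stretch of letters only and does not show that a factor was bound.

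Mature miR-93-5p is printed below because its mimic separates the HG+NT and HG+miR-93 cells. It derives from chr5:138165574-138165596 on the minus strand, and capitals mark the seed, bases 2 to 8. The labels do not give the sequence of the mimic itself.
mmu-miR-93-5p: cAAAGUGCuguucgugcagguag
A 7-base match to this seed (GCACTTT) was present in the longest annotated 3′ untranslated region of 5 of the 10 genes and of 11.8% of 21021 genes, with a median length of 1308 nt in the 10 genes and 961 nt in all. *E2f1* had 2 matches, and *Cdkn1a*, *Rb1*, *Ccnd1* and *Ccnd2* had 1 each. The match ends 1 base before the end of each site below (GRCm38), and each site is written in the sense of the mRNA.
*Cdkn1a*, chr17:29099815-29099836 (plus strand): ctcagacctgaataGCACTTTg
*Rb1*, chr14:73196360-73196381 (minus strand): agtacaacccaagtGCACTTTt
*E2f1*, chr2:154560211-154560232 (minus strand): ggtgggctctaactGCACTTTt
*E2f1*, chr2:154559696-154559717 (minus strand): ccaccctccagtctGCACTTTg
*Ccnd1*, chr7:144931675-144931696 (minus strand): cattccatttcaaaGCACTTTt
*Ccnd2*, chr6:127129339-127129360 (minus strand): attccattagaaaaGCACTTTg
These sites concern the transcripts, whereas DNase-Seq reads the chromatin. mRNA and protein were not measured in these files.

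Every listed peak has a fold, which is the number of fragments at the summit over the local mean of the input, each increased by 1. The fragments behind the fold were recovered from the deposited fold and -log10 p, and are given as the pileup, in fragments scaled to the depth of the input, with 95% Poisson limits (exact) that reflect the counting of fragments and nothing else. The fragments in the HG+NT and HG+miR-93 lists were 1.72 and 2.30 times those in the NG list, so the NG intervals are the widest relative to their values. For each gene the promoter peak with the highest fold was taken, and its fold was ranked as a percentile among the 21835 genes with a promoter peak in each list. The lists reach down to peaks that do not exceed the input, and the strongest peaks of the 10 genes rested on 11 to 28 fragments under NG, 16 to 48 under HG+NT and 24 to 42 under HG+miR-93. After the authors' correction for all positions, -log10 q was above 0 at 1 of the 10 genes, *Cdkn2b* in HG+NT, where 480 of all genes had such a value. In NG and HG+miR-93 it was above 0 at none of the 10 and at 401 and 24 of all genes.

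*Cdkn2b*, which encodes p15Ink4b, an inhibitor of the cyclin D kinases, had the largest ratio of folds and of pileups from NG to HG+NT among the 10 genes. Its promoter peak had a pileup of 4.91 (2.45 to 8.79) under NG, 12.5 (9.19 to 16.5) under HG+NT and 8.16 (5.88 to 11.0) under HG+miR-93. The HG+NT interval lay wholly above that of NG, whereas the interval of HG+miR-93 overlapped both. The corresponding folds were 2.11, 4.81 and 3.05, which ranked *Cdkn2b* at percentiles 66.3, 99.8 and 98.6. In HG+NT its fold was number 36 from the top among 21835 genes, and its -log10 p of 7.20 was reached by 106 peaks of the whole list. The -log10 p was 1.44 in NG and 3.62 in HG+miR-93.

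From NG to HG+NT the fold of *Cdkn2b* was 2.28 times higher, rank 124 of all genes, and the ratio of pileups was 2.54 (1.3 to 5.42). From HG+NT to HG+miR-93 the fold ratio was 0.635, lower than in all but 7.48% of genes, with a pileup ratio of 0.655 (0.422 to 1.01). The 2 comparisons share the HG+NT list, so a high count there raises the one ratio and lowers the other. Between NG and HG+miR-93, which share no list, the pileup ratio was 1.66 (0.841 to 3.58). The local mean of the input under the summit was 1.8 fragments in both NG and HG+NT and 2 in HG+miR-93. The peak covered nearly the same stretch in each list, chr4:89309542-89311513 in NG and chr4:89309542-89311532 in the others, and its summit stood at -44, 79 and 1 nt from the start site, where negative values lie upstream. In HG+NT and HG+miR-93 the summit fell in the untranslated part of the first exon, just downstream of the printed sequence, and in NG within it.

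**Figure D1:**
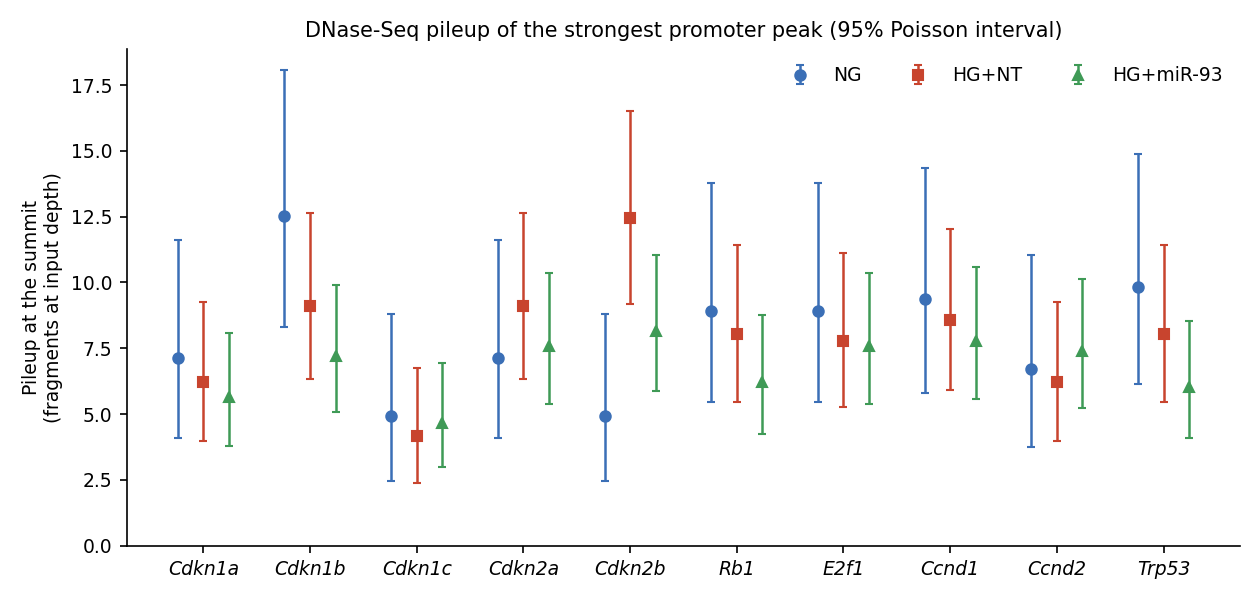
Pileup at the summit of the strongest promoter peak of each gene, in fragments scaled to the input, for NG (circles), HG+NT (squares) and HG+miR-93 (triangles); bars are 95% exact Poisson intervals of the joint list. At *Cdkn2b* the HG+NT interval (9.19 to 16.5) clears the NG interval (2.45 to 8.79), and at the other 9 genes the intervals of NG and HG+NT overlap.

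*Cdkn2a*, next to *Cdkn2b* on chromosome 4, encodes p16Ink4a, another inhibitor of the cyclin D kinases, and Arf, which stabilises p53 by restraining Mdm2. Its strongest peak lay at the Arf promoter in each list, with pileups of 7.15 (4.08 to 11.6) under NG, 9.09 (6.33 to 12.6) under HG+NT and 7.58 (5.39 to 10.4) under HG+miR-93. The folds were 2.55, 3.36 and 2.68, at percentiles 84.1, 98.2 and 95.7. All 3 intervals overlapped, and the pileup ratio from NG to HG+NT was 1.27 (0.686 to 2.46). The summits, at -284, -331 and -200 nt, lay upstream of the E2F match and the GC box in the Arf sequence above, and in HG+miR-93 the summit fell within the printed stretch.

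The Ink4a promoter showed another order. Its fold was 2.12 under NG, 1.55 under HG+NT and 1.08 under HG+miR-93, and its pileup was 5.36 (2.77 to 9.36), 3.64 (1.99 to 6.10) and 3.30 (1.92 to 5.29). These intervals overlap throughout, so an order at this promoter was not detectable at this depth. The 2 start sites of *Cdkn2a* lie 16386 and 28847 nt downstream of that of *Cdkn2b* in the direction of transcription. Over the stretch drawn in the map of the locus, HG+NT had its highest fold of 4.81 at *Cdkn2b* and its next, 3.36, at Arf. HG+miR-93 had the same order, with 3.05 and 2.68. In NG the highest fold was that of Arf (2.55) and the next that of Ink4a (2.12), just above *Cdkn2b* (2.11). The median fold of the locus was 1.38 over 23 peaks under NG, 1.2 over 22 under HG+NT and 1.29 over 20 under HG+miR-93. A peak upstream of *Cdkn2b*, whose summit stood at -2486, -2374 and -2642 nt in the 3 lists, had folds of 2.1, 1.2 and 1.24.

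**Figure D2:**
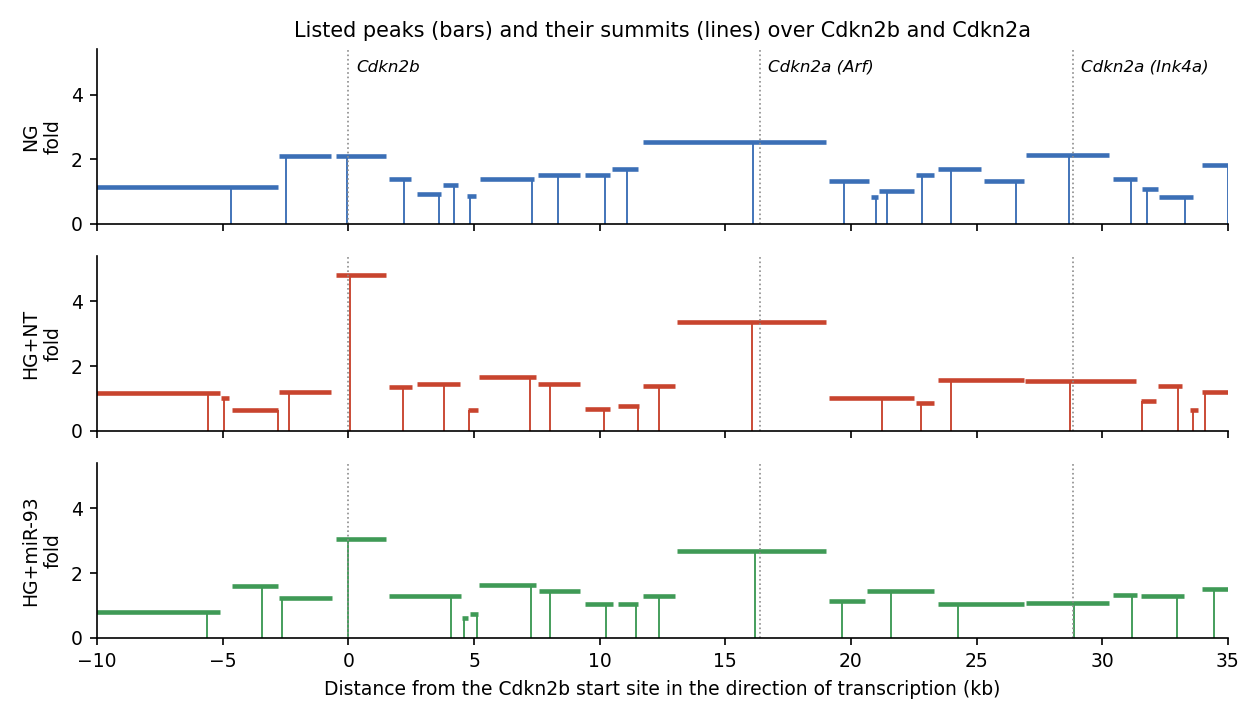
Listed peaks (horizontal bars, drawn at their fold over the input) and their summits (vertical lines) by distance in kb from the *Cdkn2b* start site along the direction of transcription, 1 panel per list; dotted lines mark the start sites of *Cdkn2b*, Arf and Ink4a. The bar at *Cdkn2b* stands at 2.11 under NG, 4.81 under HG+NT and 3.05 under HG+miR-93, and the bar at Arf at 2.55, 3.36 and 2.68.

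*Cdkn1b*, the gene of p27Kip1, had its highest value in NG and its lowest under HG+miR-93. Its pileup was 12.5 (8.31 to 18.1) in NG, the highest of the 10 genes in that list, 9.09 (6.33 to 12.6) in HG+NT and 7.19 (5.06 to 9.91) under HG+miR-93. The folds were 2.25, 1.68 and 1.17, at percentiles 71.1, 44.2 and 13.8. This was the lowest fold of the 10 genes in each of the HG lists. Neighbours in this order had overlapping intervals, with pileup ratios of 0.727 (0.430 to 1.24) from NG to HG+NT and 0.791 (0.485 to 1.29) from HG+NT to HG+miR-93. From NG to HG+miR-93 the pileup ratio was 0.575 (0.342 to 0.975) and the fold ratio 0.520, lower than in all but 6.31% of genes. The median pileup ratio of all genes in this comparison was 0.870, which lies within that interval. The pileup was lower at 67.5% of all genes, and the share with a ratio interval below 1 was not counted. The single intervals of *Cdkn1b* still overlapped. The local mean of the input was 5, 5 and 6 fragments, above the background mean of 1.43, so the input was itself high at this promoter. The summit lay in the first exon at 108 and 201 nt from the nearest start in NG and HG+NT. In HG+miR-93 it lay at -52 nt, between the GC box and the second CCAAT box of the printed sequence.

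*Cdkn1a*, the gene of p21 and a transcriptional target of p53, has 3 promoters, and its strongest peak was not the same one in each list. The pileup was 7.15 (4.08 to 11.6) under NG, 6.23 (3.99 to 9.27) under HG+NT and 5.64 (3.77 to 8.09) under HG+miR-93, whereas the fold was 1.77, 2.41 and 2.4, at percentiles 43.3, 86.6 and 89.7. These values belong to different promoters, and the local input mean under the summit was 3.6, 2 and 1.76. In NG the summit stood at 7 nt from a start of the middle promoter. In HG+NT it stood at -11990 nt, within a 13527 bp peak that reached the most upstream promoter, and fell in a noncoding exon of *Trp53cor1*, the gene of lincRNA-p21. In HG+miR-93 it stood at -91 nt from the most upstream start.

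By the peaks that overlapped each promoter, *Cdkn1a* gave folds of 1.25, 2.41 and 2.4 at the most upstream start, 1.77, 1.59 and 2.00 at the middle starts and 1.73, 1.59 and 2.00 at the most downstream start. The pileups of these peaks were 4.02, 6.23 and 5.64, then 7.15, 8.57 and 7.0, and then 3.57, 8.57 and 7.0. They are counts at the summits and not always at the promoters. In HG+NT and HG+miR-93 a single wide peak, of 22915 and 28626 bp, covered both the middle and the most downstream promoter, so the same value stands for both, with the summit at -4174 and -3182 nt from the most downstream start. Near the middle starts, where the summits of NG and HG+NT lay at 7 and -43 nt, the pileups of 7.15 (4.08 to 11.6) and 8.57 (5.90 to 12) had overlapping intervals. With summits required to lie within the promoter, the percentile change of *Cdkn1a* from NG to HG+NT was 1.67 in place of 43.2. It was 22.2 ranked by pileup and -13.3 with the folds of all promoter peaks summed.

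*Cdkn1c*, the imprinted gene of p57Kip2, had the lowest pileup of the 10 genes for HG+NT and HG+miR-93 and shared the lowest of NG with *Cdkn2b*. The values were 4.91 (2.45 to 8.79) under NG, 4.15 (2.37 to 6.75) under HG+NT and 4.66 (2.99 to 6.94) under HG+miR-93. The folds of 1.48, 1.98 and 1.42, at percentiles 20.5, 66.2 and 29.4, moved with the local input mean of 3, 1.6 and 3 rather than with the fragments. The summits also lay apart, at -1160 nt, at -164 nt inside a coding exon, and at -5313 nt. Ranked by pileup, the percentile change was -8.3 for NG to HG+NT and 9.39 for HG+NT to HG+miR-93, against 45.7 and -36.8 by fold. Neither comparison exceeded the counting error of this gene.

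**Figure D3:**
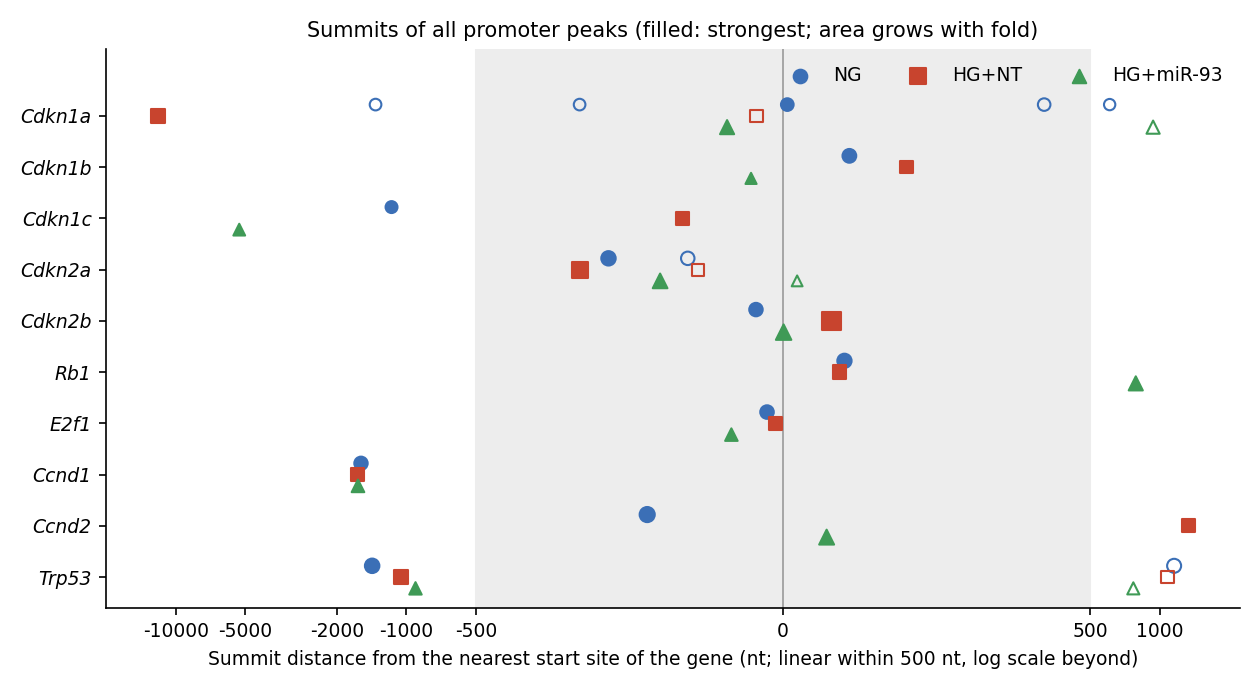
Distance in nt of each promoter peak's summit from the nearest start site of its gene, linear within 500 nt (shaded) and on a log scale beyond, for NG (circles), HG+NT (squares) and HG+miR-93 (triangles); filled symbols are the strongest peak of the gene, and the area grows with the fold. The summits of *Cdkn1b*, *Cdkn2a*, *Cdkn2b* and *E2f1* lie within the shaded window in each list, those of *Ccnd1* lie at -1574, -1624 and -1622 nt, and those of *Cdkn1a* and *Cdkn1c* spread as far as -11990 and -5313 nt.

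*Rb1*, the pocket protein gene whose product holds E2F in check, ranked high by fold in each list. Its pileup was 8.93 (5.46 to 13.8) under NG, 8.05 (5.47 to 11.4) under HG+NT and 6.22 (4.25 to 8.78) under HG+miR-93, with folds of 2.48, 2.26 and 2.41 at percentiles 82.8, 81.3 and 89.9. All intervals overlapped. The summit stood in the untranslated part of the first exon at 100 and 92 nt in NG and HG+NT and in the intron behind it, at 788 nt, in HG+miR-93.

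*E2f1*, the gene of an activating E2F factor, had the same pileup as *Rb1* in NG, 8.93 (5.46 to 13.8), with 7.79 (5.26 to 11.1) in HG+NT and 7.58 (5.39 to 10.4) under HG+miR-93. The folds of 2.16, 2.00 and 1.72 ranked at percentiles 69.3, 66.6 and 52.5. The summits stayed close to the start, at -26, -12 and -84 nt. The local input mean was 3.6, 3.4 and 4, and the pileup ratio was 0.872 (0.479 to 1.62) for the first comparison and 0.973 (0.589 to 1.62) for the second, so no difference was detectable at this depth.

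The D-type cyclins activate the kinases that the INK4 proteins inhibit. *Ccnd1* had pileups of 9.38 (5.81 to 14.3), 8.57 (5.9 to 12) and 7.77 (5.55 to 10.6) for NG, HG+NT and HG+miR-93, and folds of 2.08, 1.91 and 1.75 at percentiles 64.9, 63.0 and 54.0. Its summit lay upstream of the start and outside annotated genes in each list, at -1574, -1624 and -1622 nt. The local input mean was 4 in each list.

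*Ccnd2* was the other gene whose fold differed by 1.5 times or more from NG to HG+NT and between the HG lists. Its folds were 2.89 in NG, the highest of the 10 genes in that list, 1.81 in HG+NT and 2.79 under HG+miR-93, at percentiles 92.1, 55.8 and 96.8. Its pileups were 6.70 (3.75 to 11.0), 6.23 (3.99 to 9.27) and 7.38 (5.23 to 10.1), which lie close together, and the local input mean was 1.66, 3 and 2. The summit stood at -221 and 71 nt in NG and HG+miR-93 but at 1331 nt in HG+NT, within a peak of 24130 bp. *Ccnd2* has another promoter, which the same peak covered in each list, so both have the same values. From the start of that promoter the summits lay at 912, 2517 and 1257 nt. Ranked by pileup, the percentile change from NG to HG+NT was 7.93 in place of -36.3, so its direction depended on the measure. Between the HG lists it was 15.7 by pileup and 40.9 by fold.

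*Trp53*, the gene of p53, had pileups of 9.83 (6.16 to 14.9) under NG, 8.05 (5.47 to 11.4) under HG+NT and 6.02 (4.09 to 8.55) under HG+miR-93. The folds of 2.58, 2.26 and 1.67 ranked at percentiles 85.0, 81.3 and 48.3. The local input mean was 3.2, 3 and 3.2. The pileup ratio from NG to HG+miR-93 was 0.613 (0.344 to 1.11) and the intervals overlapped. The start sites of *Trp53* and the divergent gene *Wrap53* adjoin each other, and the summits, at -1408, -1056 and -913 nt, fell inside *Wrap53*. A weaker second peak within the first intron of *Trp53* had folds of 2.37, 1.53 and 1.55.

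**Figure D4:**
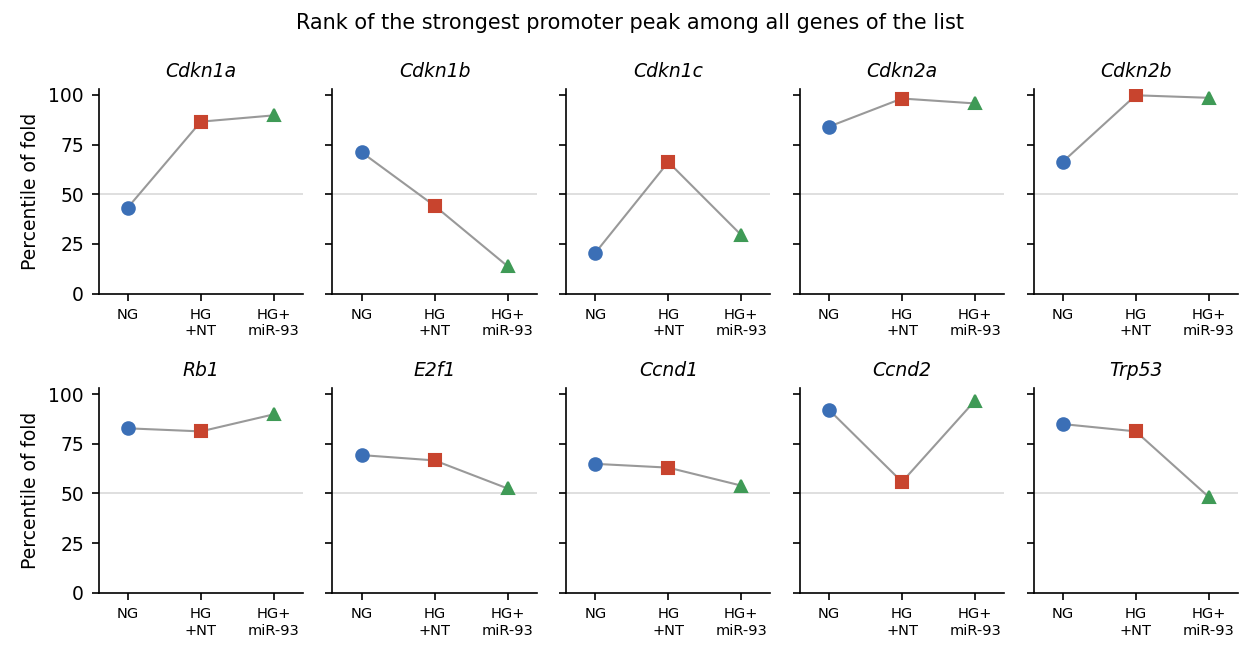
Percentile of the highest promoter fold of each gene among the 21835 genes of a list, for NG, HG+NT and HG+miR-93; the grey line marks the middle of the list. *Cdkn2b* stands at 66.3, 99.8 and 98.6, *Cdkn1b* at 71.1, 44.2 and 13.8, and *Ccnd2*, whose order depended on the measure, at 92.1, 55.8 and 96.8.

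Over the 10 genes, the fold was at least 1.5 times higher in HG+NT than in NG at 1, *Cdkn2b*, where 7.32% of all genes passed this ratio, and at least 1.5 times lower at 1, *Ccnd2*, where 16.5% passed. By pileup, the intervals of NG and HG+NT were apart with HG+NT higher at 1 gene, *Cdkn2b* (0.719% of all genes), and with HG+NT lower at 0 (2.19%). Both criteria together held in the upward direction at *Cdkn2b* and at 63 of all genes, or 0.289%. Of the 5 inhibitors, 4 ranked higher in HG+NT and *Cdkn1b* lower, and *Rb1*, *E2f1*, the cyclins and *Trp53* all ranked lower in HG+NT by fold. Of all genes, 50.2% ranked higher in HG+NT and 49.8% lower. This split held for *Cdkn1b*, *Cdkn2a* and *Cdkn2b* under each alternative way of choosing or ranking the peaks that gave them a value, and changed direction under at least 1 of them for the other 7.

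From HG+NT to HG+miR-93, the fold was at least 1.5 times higher at 1 of the 10, *Ccnd2* (6.22% of all genes), and at least 1.5 times lower at 1, *Cdkn2b* (9.74%). The intervals were apart at 0 of the 10 in either direction, against 0.426% of all genes with HG+miR-93 higher and 1.9% with HG+miR-93 lower. These shares of the 10 genes are close to those of all genes. By percentile, 3 of the 10 ranked higher in HG+miR-93 (*Cdkn1a*, *Rb1* and *Ccnd2*) and 7 lower. Of all genes, 50.2% ranked higher in HG+miR-93 and 49.8% lower. The direction was the same under each alternative that gave a value for *Cdkn1b*, *Cdkn2a*, *Cdkn2b*, *Ccnd2* and *Trp53* only.

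**Figure D5:**
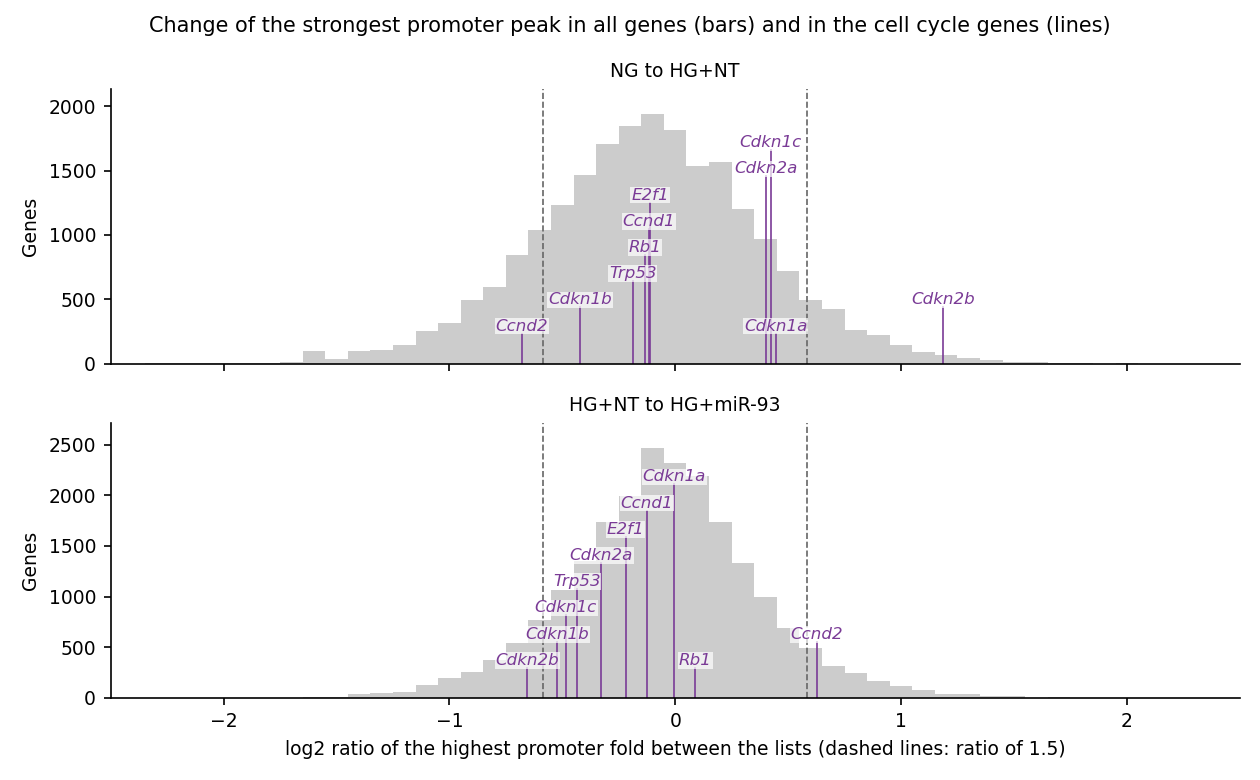
Number of genes by the log2 ratio of their highest promoter fold between 2 lists, NG to HG+NT above and HG+NT to HG+miR-93 below, with purple lines for the 10 cell cycle genes and dashed lines at a ratio of 1.5 in either direction. *Cdkn2b* (2.28) lies in the upper tail of the first comparison and *Ccnd2* (0.625) past the lower line. Both lie past the opposite line in the second (0.635 and 1.55), and the other 8 lie between the lines in both.

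The median percentile of the 10 genes was 70.2 under NG, 74.0 under HG+NT and 71.8 under HG+miR-93, above the middle of each list. Their median change was -1.72 for NG to HG+NT and -5.76 for HG+NT to HG+miR-93, where all genes had medians of 0.0916 and 0.0321. By pileup the median ratio was 0.887 and 0.869 in the 10 genes and 0.904 and 0.952 in all genes. The pileup itself was lower in HG+NT at 8 of 10 genes and lower under HG+miR-93 than under HG+NT at 8 of 10, as it was at 62.4% and 59.1% of all genes. At *Cdkn1a* these pileups belong to different promoters. The sign of the first median changed with the way of ranking, whereas the second stayed below 0 under each of the 8 alternatives, from -6.89 to -2.31. From NG to HG+miR-93 the median percentile change of the 10 genes was 5.85, against -0.119 in all genes. The summit of the strongest peak lay within 500 nt of a start at 7, 6 and 6 of the 10 genes for NG, HG+NT and HG+miR-93, and at 60.9%, 57.7% and 56.9% of all genes.

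The genes with a seed match for miR-93 had percentile changes from HG+NT to HG+miR-93 of 3.17 (*Cdkn1a*), 8.59 (*Rb1*), -14.1 (*E2f1*), -9.05 (*Ccnd1*) and 40.9 (*Ccnd2*). Those without one had -30.4 (*Cdkn1b*), -36.8 (*Cdkn1c*), -2.48 (*Cdkn2a*), -1.28 (*Cdkn2b*) and -33.0 (*Trp53*). With summits required to lie within the promoter, the change of *Cdkn1a* was 48.7 in place of 3.17. Ranked by pileup, *Cdkn1a*, *Rb1*, *E2f1*, *Ccnd1* and *Cdkn1c* took the other sign, so a difference between these groups was not read from the values. Whether the seed matches have a part in them was not tested.

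A further 33 genes of the same pathway, among them the other E2F and pocket protein genes, the cyclins E, A and B, their kinases and E2F target genes of DNA replication, had median percentiles of 75.5 under NG, 56.6 under HG+NT and 57.4 under HG+miR-93. Their median change was -7.46 from NG to HG+NT, and ran from -13.8 ranked by -log10 p to 1.37 ranked by pileup over the alternatives. Between the HG lists it was 0.165, and below 0 under 5 of 8 alternatives. From NG to HG+NT the fold was at least 1.5 times higher at 2 of the 33 (7.32% of all genes) and at least 1.5 times lower at 8 (16.5%), with the intervals apart at 0 in either direction (0.719% and 2.19%). Between the HG lists it was at least 1.5 times higher with miR-93 at 1 (6.22% of all genes) and lower at 2 (9.74%), and the intervals were apart, with HG+miR-93 lower, at another 2 (1.9%). None of the 33 met both criteria in a comparison. *Cdk2*, the kinase partner of cyclins E and A, ranked highest over the lists, with folds of 2.86, 3.02 and 2.93. *Ccnb1*, the gene of the mitotic cyclin B1, ranked lowest, with folds of 1.58, 1.07 and 0.976.

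The genes behind the smaller of these counts were chosen for naming after their values were seen. *Cdkn2d*, the gene of the INK4 protein p19, had folds of 1.22, 2.10 and 2.00 and pileups of 11.2 (7.23 to 16.5), 17.9 (13.9 to 22.7) and 5.05 (3.30 to 7.40). In HG+miR-93 its strongest peak had its summit at 1960 nt from the start site and not at 20 nt as in HG+NT, so the last pileup belongs to another position. *Pcna*, the sliding clamp of DNA polymerase, had folds of 0.977, 1.81 and 1.62 and pileups of 10.7, 11.7 and 8.75, over local input means of 11, 6 and 5. *Cdc6*, a loader of the replicative helicase, had folds of 1.90, 1.13 and 1.74, with pileups of 8.49, 4.67 and 5.25 over local input means of 4, 4 and 2.6. *Ccne2*, a cyclin E gene, and *Cks1b*, a cofactor in p27 degradation, had folds of 1.82 and 2.85 in HG+NT and 1.2 and 1.46 under HG+miR-93. The pileup of *Ccne2* was 5.19 and then 6.22, over local input means of 2.4 and 5, at summits of 597 and 56 nt. The summits of *Cks1b* stood at 6076 and -85 nt, so the folds of each gene belong to different positions. *E2f3*, an activating E2F gene, had nearly level folds of 1.80, 1.73 and 1.75. Its pileups were 14.5 (11.0 to 18.9) in HG+NT and 7.77 (5.55 to 10.6) under HG+miR-93 at summits of -244 and -41 nt. The local input means under these summits were 8 and 4.

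The labelled cell type was checked against podocyte markers, of which 6 are given here by the percentile of their promoter fold for NG, HG+NT and HG+miR-93. *Synpo*, the synaptopodin gene, ranked high in each list (91.1, 96.3 and 71.4), with summits at 337, 332 and -3153 nt. *Podn* ranked at 65.3, 73.1 and 91.4, with summits at -592, 138 and 3058 nt. *Nphs1*, the nephrin gene of the slit diaphragm, ranked at 9.99, 55.0 and 64.1. Its pileups were nearly level at 4.02 (1.84 to 7.63), 4.41 (2.57 to 7.07) and 4.66 (2.99 to 6.94), over local input means of 3, 2 and 2. The summits of *Nphs1* stood at -1791, 442 and 7639 nt in the 3 lists, so these values belong to different positions. *Cd2ap* stood at 44.8, 81.6 and 34.5, and *Ptpro* at 37.7, 77.6 and 41.2. The summits of *Cd2ap* lay close together (-306, -226 and -314 nt), and those of *Ptpro* lay apart (408, -3506 and -1770 nt). Median percentiles were 54.6, 58.4 and 63.7 for 4 endothelial markers, 44.9, 65.2 and 84.6 for 4 mesangial and stromal markers, 30.5, 40.2 and 29.1 for 4 tubular markers, and 27.1, 51.8 and 69.0 for 4 leukocyte markers. Among 4 genes expressed in all cells the medians were 56.9, 48.1 and 35.9. Single genes moved over most of the range between lists, as *Podxl* did with 90.4, 13.6 and 75.9. Its summits also lay apart, at -1110, 5815 and 421 nt. The part of cell composition in the values of the cell cycle genes was not tested.

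On chromosome 4, which carries *Cdkn2a* and *Cdkn2b*, the median fold ratio was 0.927 from NG to HG+NT over 1326 genes, against 0.922 over all genes. It was 0.965 on chromosome 6 (*Cdkn1b* and *Ccnd2*), 0.902 on chromosome 7 (*Cdkn1c* and *Ccnd1*) and 0.872 on chromosome 2 (*E2f1*). From HG+NT to HG+miR-93 the medians of the 7 chromosomes concerned ran from 0.949 on chromosome 4 to 0.975 on chromosome 14 (*Rb1*), against 0.964 over all genes.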

How the data were processed

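DNase-Seq of podocytes under 3 conditions (2 replicates each) and 1 genomic DNA input was examined. Reads were trimmed (TrimGalore!), aligned to mm10 (Bowtie) and stripped of duplicates by the authors, who then ran MACS2 against the input; the submitters' processing notes name CASAVA 1.8.2, Bowtie and MACS2. The deposited values are, per peak, a fold (ratio of fragments to the local mean of the input), a -log10 p and a -log10 q, 1 list per condition. That replicates were pooled is inferred from the lists' names as joint sets. The study refers to settings recommended for DNase-seq without giving their values.

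Fragments and local input means were solved from fold and p as a Poisson tail, with the mean on steps of 0.02, a spacing read from the values themselves, or at the background; where several solutions were left, the fewest fragments were taken. A single solution was found for 99.8% or more of the peaks of each list. Depth relative to the input was 2.24, 3.85 and 5.15 for NG, HG+NT and HG+miR-93. Overlaps needed 1 bp. A ratio of 1.5 between lists, or 95% Poisson intervals that did not overlap, counted as past a criterion. Ratio intervals are exact conditional ones. Start sites were those on chromosomes 1 to 19, X and Y. Steps were tested on simulated data.

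The named genes are the 10 members, all described, per promoter where start sites lie over 1000 nt apart, and of the pathway list those past both criteria and the highest and lowest; exceptions are marked. The members and lists were chosen with earlier results of these data known. Alternatives changed the promoter width, the overlap, the ranking measure, the minimum -log10 p and the ratio. Software was matplotlib 3.10.9, scipy 1.17.1, pandas 2.3.3 and numpy 2.4.6 under Python 3.11.15, with GENCODE vM21.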

Additional observations from a re-analysis of the deposited data

How the results depend on the processing

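The median percentile change of the 10 genes from NG to HG+NT, -1.72, was -2.3 with promoters of 1000 nt on either side, -1.76 with an overlap of at least 100 bp and -8.32 with peaks of -log10 p of at least 1 (8 genes with a value). It was above 0 under the others: 3.81 with summits within the promoter (5 genes), 5.17 ranked by -log10 p, 6.03 by pileup, 1.25 with folds summed and 4.35 with folds over the chromosome's median. From HG+NT to HG+miR-93, -5.76 kept its sign, with -6.27, -5.61, -4.36, -2.31, -3.9, -3.91, -6.89 and -3.71 in the same order.

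The count of genes past a ratio of 1.5 from NG to HG+NT was 2 of 10 (23.9% of all genes). It was 1 of 5 with summits within the promoter (28.1%), 1 by pileup (22.2%), 3 with folds summed (32.2%) and 3 with folds over the chromosome's median (21.9%), and 6 at a ratio of 1.3 (43.8%) and 1 at a ratio of 2 (5.53%). With peaks of -log10 p of at least 1 it was 2 of 8 (12.7%). For the miR-93 mimic against the control mimic it was 2 (16.0% of all genes), with 1 by pileup (7.83%), 1 with folds over the chromosome's median (15.4%), 5 at a ratio of 1.3 (34.0%) and 0 at 2 (2.9%). It was 2 of 5 with summits within the promoter (19.1%) and 2 of 8 with peaks of -log10 p of at least 1 (6.01%). The percentile change of *Ccnd2* from NG to HG+NT was reversed to 7.93 by pileup. For the changed medians and for *Ccnd2* the cause was not tested.

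No paired analysis was possible because each list appears to pool the replicates. The lists rest on a median of 6, 10 and 12 fragments per peak (NG, HG+NT and HG+miR-93), the intervals cover counting error only, and the highest of several peaks was taken per gene, so small differences at single promoters were not detectable at this depth.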
